A study of Mus musculus with 4 samples.

Results

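The intracellular serpins of clade B were followed in mouse RAW264 macrophages as 8 genes, Serpinb1a, Serpinb1b, Serpinb1c, Serpinb6a, Serpinb6b, Serpinb8, Serpinb9 and Serpinb10, of 36381 gene names on the arrays. They carried 13 probes. The genes were chosen by their log2 signals on these same 4 arrays, with results already in view, so their values are given as a description and nothing is tested on them. The arrays hold 19 further clade B names, which are set beside the 8 where they share a probe sequence or a chromosomal neighbourhood. RAW264 is a macrophage line of BALB/c mouse origin. Cultures were transfected with small interfering RNA (siRNA) against Tfe3 and Tfeb, which code for related transcription factors of lysosomal genes, or against green fluorescent protein (GFP), a jellyfish protein that mouse cells lack, as the control. From 48 hours after transfection they were kept for 24 hours with 500 µM ferric chloride or without it. The groups were siTfe3/Tfeb iron, siTfe3/Tfeb untreated, siGFP iron and siGFP untreated, with 1 array each, so no spread between cultures could be estimated and no test was possible.

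Serpins are a protein family named for their serine protease inhibitors. A target protease cuts an exposed loop of the serpin, the serpin changes shape, and the protease is trapped in a covalent complex. Members of clade B lack a classical secretion signal and mostly stay in the cytosol or nucleus, where several of them protect leukocytes from proteases that leak from their own granules and lysosomes. In rodents the clade is expanded into clusters of paralogues.

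The differences among the 8 genes rest on the probes below, each 60 bases long, with array design coordinates on mm9. The first 3 sequences are shown because the largest differences were read from them. Serpinb1a was read on the minus strand at chr13:32934693-32934752, and Serpinb10 on the plus strand at chr1:109443390-109443449. The Serpinb1c probe lies on the minus strand at chr13:32976212-32978061, a span of 1850 bases, so it crosses an intron.
Serpinb1a: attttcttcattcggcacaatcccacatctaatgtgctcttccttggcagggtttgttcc
Serpinb1c: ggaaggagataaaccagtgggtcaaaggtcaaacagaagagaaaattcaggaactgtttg
Serpinb10: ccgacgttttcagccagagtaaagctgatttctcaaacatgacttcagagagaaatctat
These 3 probes share runs of at most 9 bases with the clade B probes of other genes. For Serpinb8 and Serpinb6a the sequence bears on what the signal can mean. The brightest Serpinb8 probe (plus strand, chr1:109504865-109504924) has 41 of its 60 bases in repeats of TG, in capitals below for bases 14 to 43. The dimmer Serpinb8 probe spans 1746 bases (plus strand, chr1:109499452-109501197), so it too crosses an intron, and has 4 such bases.
Serpinb8 brightest probe, bases 14 to 43: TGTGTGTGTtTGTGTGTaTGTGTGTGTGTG
Serpinb8 dimmer probe: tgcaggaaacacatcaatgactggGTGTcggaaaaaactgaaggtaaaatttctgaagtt
The brightest Serpinb6a probe (minus strand, chr13:34009796-34009855) and the brightest probe of its neighbour Serpinb6c (minus strand, chr13:33971703-33971762) share a run of 26 bases, in capitals.
Serpinb6a, bases 1 to 30: AAGTGACCTTATCCATAAGTGCAATGgcaa
Serpinb6c, bases 19 to 48: AAGTGACCTTATCCATAAGTGCAATGacag
Whether probes without an intron lie in coding or untranslated exons was not analysed here.

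The arrays were comparable in brightness. The 75th percentile of the processed signal, to which each array was scaled, lay between 593 and 636, and 19194 to 20190 gene names were well above background, a flag set by the scanner software for a spot that exceeds its local background. No spot was saturated. The macrophage markers Lyz2, Csf1r, Adgre1, Cd68, Itgam, Cd14, Spi1 and Ptprc were well above background on every array. Of the siRNA targets, Tfe3 by its bright probe stood at 68.4% of siGFP with iron and at 60.6% when no iron was added. A dimmer Tfe3 probe, well above background on 1 array, was at 54.0% and 48.6%. The brightest Tfeb probe was at 112% and 91.0%. The other Tfeb probes were at 90.7%, 94.5% and 95.9% with iron, and at 88.3%, 105% and 88.3% when no iron was added. Knockdown therefore means here only the array labelled siTfe3/Tfeb set against its siGFP counterpart. Errors written with ± are 1 SD from the scanner software's error model, combined over the arrays compared. They cover the spots and the scan and leave out variation between cultures.

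The 7 genes other than Serpinb1b were well above background on all 4 arrays. Serpinb1b, a paralogue of Serpinb1a (probe on the plus strand, chr13:33185999-33186058), was not well above background on any array. Its signals were 4.82 in siTfe3/Tfeb iron, 4.62 in siTfe3/Tfeb untreated, 21.8 in siGFP iron and 5.01 in siGFP untreated. The siGFP iron spot was the brightest of the 4 and still below 22.3, the dimmest signal on that array that counted as well above background. Serpinb1b has no fold and does not enter the counts that follow.

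**Figure D1:**
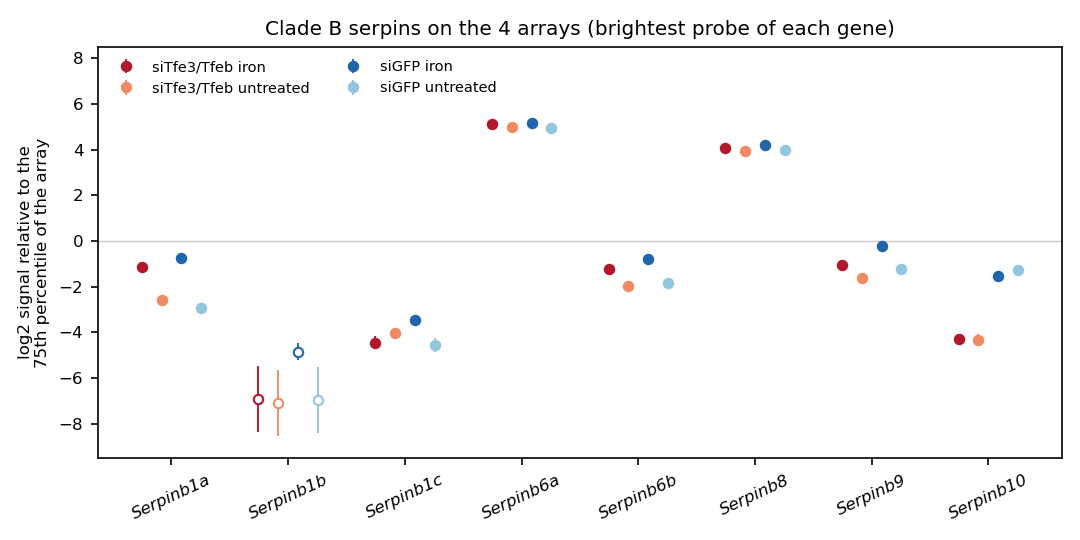
Log2 processed signal relative to the 75th percentile of each array (vertical axis) for the brightest probe of each of the 8 genes, with 1 point per array, error bars of 1 SD from the scanner's error model, and open points where the spot was not well above background. Serpinb10 has both siTfe3/Tfeb points far below both siGFP points, Serpinb1a has both iron points above both untreated points, and Serpinb6a and Serpinb8 show almost level points.

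Iron in siTfe3/Tfeb cells went with a higher signal of 1 gene, Serpinb1a, counted from a 2-fold difference, out of the 7 with a value. Of all gene names with a value, 2.23% differed 2-fold in either direction, with 1.55% higher and 0.677% lower. The median log2 difference of the 7 was 0.11, against -0.00 over all genes measured. In siGFP cells 3 genes were higher with iron, Serpinb1a, Serpinb1c and Serpinb6b, where 1.76% of all genes differed 2-fold, with 1.45% higher and 0.313% lower. The median of the 7 was 0.997, against -0.03. In each of these comparisons 6 of 7 lay above 0 by the brightest probes, and 5 of 7 with Serpinb8 by its dimmer probe. Since the genes were chosen with these values known, nothing is read from the shares.

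Serpinb1a is the mouse counterpart of human SERPINB1, an inhibitor of the neutrophil proteases elastase, cathepsin G and proteinase 3. Its signals were 271 in siTfe3/Tfeb iron, 107 in siTfe3/Tfeb untreated, 378 in siGFP iron and 81.8 in siGFP untreated. Both iron arrays stood above both untreated arrays, and each step in the order of the arrays was larger than its error. With iron Serpinb1a was 2.72-fold higher in siTfe3/Tfeb cells (log2 difference 1.44 ± 0.21), which ranked 106 from the highest of 18848 genes measured on both arrays. In siGFP cells it was 4.57-fold higher (2.19 ± 0.22), rank 17 of 19039. The difference of these log2 differences, siTfe3/Tfeb minus siGFP, was -0.75 ± 0.31. Knockdown gave -0.40 ± 0.21 with iron and 0.35 ± 0.23 without iron, so the siTfe3/Tfeb array was below its siGFP counterpart with iron and above it without.

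Serpinb1c, a further paralogue of Serpinb1a, was dim. It had signals of 27.0 in siTfe3/Tfeb iron, 38.5 in siTfe3/Tfeb untreated, 56.2 in siGFP iron and 26.0 in siGFP untreated. The siGFP iron array was highest, and siTfe3/Tfeb iron and siGFP untreated differed by less than their error. Iron gave a log2 difference of -0.41 ± 0.36 in siTfe3/Tfeb cells and 1.10 ± 0.36 in siGFP cells. The value in siTfe3/Tfeb cells was 0.14 by the mean over both Serpinb1c probes, so its sign depends on the probe rule. The difference between them was -1.50 ± 0.51, the 11th lowest of 18374 genes. Repeated spots of other probes at levels below -4 (log2, relative to the scaling level) gave an SD of 0.569 for a difference of 2 arrays, and those from -4 to -2 gave 0.264. For the probes below -4 the error model gave 1.06 on 1 array, against an SD of 0.402 from the spots. For Serpinb1c the model gave at most 0.31 on 1 array, so those probes are not a close match for it. The second Serpinb1c probe was not well above background on any array.

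Normexp background correction fits a model to the signals left after local background is subtracted, and an offset of 50 was then added. An added offset by itself makes log2 differences of dim signals smaller, and 50 is of the size of the Serpinb1c signals. With this setting Serpinb1c differed with iron by -0.01 in siTfe3/Tfeb cells and by 0.36 in siGFP cells. Serpinb6b then differed by 0.81 in siGFP cells. The count of genes that were 2-fold higher with iron in siGFP cells was then 1, Serpinb1a.

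Serpinb6b, a paralogue of Serpinb6a known in mice as an inhibitor of granzyme A, was read by a single probe (plus strand, chr13:33070776-33070835). Its signals were 254 in siTfe3/Tfeb iron, 160 in siTfe3/Tfeb untreated, 359 in siGFP iron and 171 in siGFP untreated. Both iron arrays were above both untreated arrays, which differed from each other by less than their error. With iron it was 1.70-fold higher in siTfe3/Tfeb cells (0.77 ± 0.21) and 2.08-fold higher in siGFP cells (1.06 ± 0.21). The difference of the responses was -0.29 ± 0.30, within its error. Knockdown gave -0.42 ± 0.21 with iron and -0.13 ± 0.21 without iron.

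Serpinb9, the mouse counterpart of the human granzyme B inhibitor SERPINB9, lay just under the 2-fold line. Its probe (plus strand, chr13:33108685-33108744) read 290 in siTfe3/Tfeb iron, 206 in siTfe3/Tfeb untreated, 530 in siGFP iron and 263 in siGFP untreated. The siGFP iron array was highest and siTfe3/Tfeb untreated lowest, and the 2 between them differed by no more than their error. Iron gave a log2 difference of 0.59 ± 0.21 in siTfe3/Tfeb cells and 0.997 ± 0.21 in siGFP cells. Knockdown gave -0.79 ± 0.21 with iron and -0.39 ± 0.21 without iron, both lower and both larger than the error.

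Serpinb6a, counterpart of human SERPINB6, an inhibitor of cathepsin G, was nearly level. Its brightest probe read 20599 in siTfe3/Tfeb iron, 20466 in siTfe3/Tfeb untreated, 22904 in siGFP iron and 19119 in siGFP untreated. Ranked by level, no array differed from the next by more than its error. That error comes from the model and was larger than the spread of repeated spots. Other probes at levels above 2 (log2), where the brightest Serpinb8 probe also lay, gave an SD of 0.063 for a difference of 2 arrays. Iron gave 0.11 ± 0.20 in siTfe3/Tfeb cells and 0.24 ± 0.20 in siGFP cells, and knockdown -0.07 with iron and 0.06 without iron. A second Serpinb6a probe (minus strand, chr13:34010675-34010734) shares at most 14 bases with a Serpinb6c probe. It gave 0.11 and 0.31 with iron and -0.07 and 0.13 with knockdown, in the same order, all close to those of the first probe. Of the other Serpinb6a probes, 1 was well above background on 2 arrays and 1 on 0.

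The brightest Serpinb6c probe, which shares the run of 26 bases, also differed little. Its signals were 16488 in siTfe3/Tfeb iron, 16482 in siTfe3/Tfeb untreated, 18105 in siGFP iron and 13694 in siGFP untreated. A dimmer Serpinb6c probe read 241, 280, 310 and 324 in that order of arrays. The siGFP iron array was thus highest by the bright Serpinb6c probe, as for Serpinb6a, and siGFP untreated was highest by the dim one. Knockdown with iron gave -0.05 ± 0.20 by the bright probe, and iron in siGFP cells gave -0.08 ± 0.21 by the dim one. Both were within their error, so by neither probe were the highest array and the next told apart. How much of the bright Serpinb6c signal comes from Serpinb6a transcripts was not tested.

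Serpinb8, whose human counterpart inhibits the proprotein convertase furin in vitro, gave different answers by its 2 probes. The brightest read 9948 in siTfe3/Tfeb iron, 9931 in siTfe3/Tfeb untreated, 11679 in siGFP iron and 9770 in siGFP untreated and, ranked by level, no array differed from the next by more than its error. The dimmer probe read 378 in siTfe3/Tfeb iron, 742 in siTfe3/Tfeb untreated, 448 in siGFP iron and 728 in siGFP untreated. By that probe both iron arrays stood below both untreated arrays. Iron gave a log2 difference of -0.87 ± 0.21 in siTfe3/Tfeb cells and -0.72 ± 0.21 in siGFP cells by the dimmer probe, where the brightest gave 0.10 ± 0.20 and 0.24 ± 0.20. For knockdown the probes were alike, at -0.16 by the dimmer and -0.15 by the brightest with iron, and at -0.01 and -0.02 without iron.

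The repeat in the brightest Serpinb8 probe is printed above, and other probes of that kind were also bright. Of 39 other probes on the arrays with at least 30 bases in TG repeats, all 39 lay on average above the 75th percentile of the arrays, against 21.9% of all 56605 probes. Their median log2 differences were 0.19 with iron in siTfe3/Tfeb cells, 0.37 with iron in siGFP cells, -0.15 for knockdown with iron and 0.02 for knockdown without iron. The brightest Serpinb8 probe, at 0.10, 0.24, -0.15 and -0.02, was near those medians in each comparison. The part of the repeat in its signal was not tested.

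**Figure D2:**
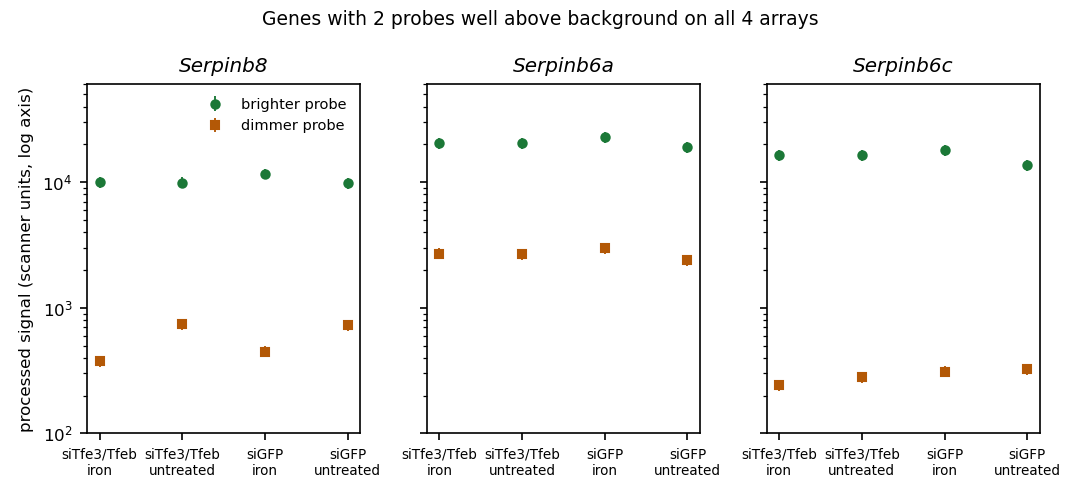
Processed signal in scanner units on a log axis for the genes with 2 probes well above background on all 4 arrays, brighter probe as circles and dimmer probe as squares, with 1 SD of the scanner's error model. The dimmer Serpinb8 probe is lower on both iron arrays while the brighter is level; the Serpinb6a probes run parallel.

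For 6 of the 7 the log2 difference with iron was smaller in siTfe3/Tfeb cells, Serpinb10 being the exception. The median of the difference of responses was -0.29, against 0.01 over all genes. Serpinb6a (-0.13 ± 0.29), Serpinb6b (-0.29 ± 0.30), Serpinb8 (-0.14 ± 0.29) and Serpinb10 (0.26 ± 0.41) were within their error. The share of all genes with a negative difference was not counted, and nothing is read from the 6 of 7. Of all genes, 0.718% had a difference of responses of at least 2-fold in either direction, with 0.414% negative and 0.305% positive. Serpinb1c was the 1 gene of the 7 among these.

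**Figure D3:**
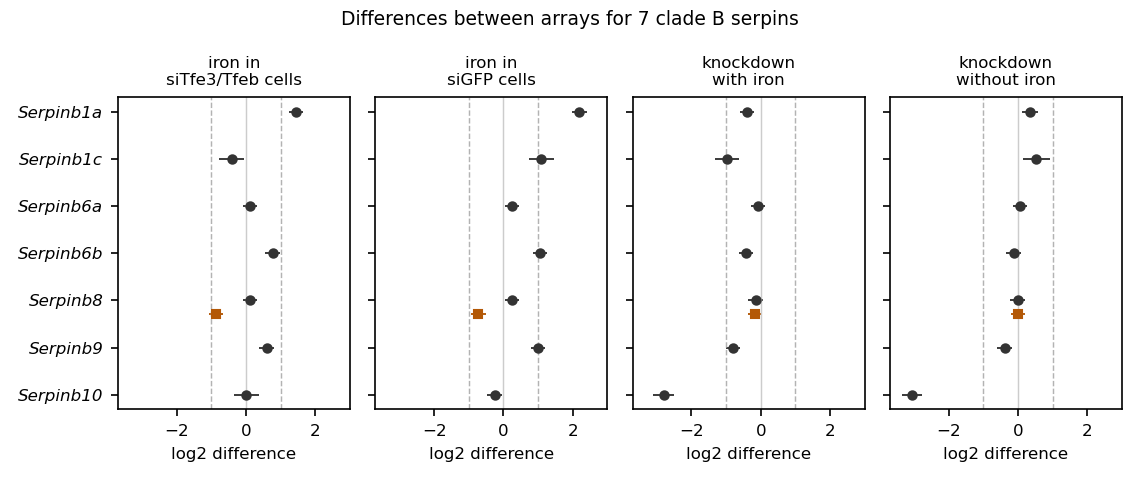
Log2 differences between arrays (horizontal axes) for 7 genes in the 4 comparisons, with 1 SD of the scanner's error model and dashed lines at a 2-fold difference. The circles are the brightest probes and the square under Serpinb8 is its dimmer probe; Serpinb1a lies farthest right with iron, and Serpinb10 lies at -2.80 and -3.06 with knockdown with and without iron.

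Knockdown went with a 2-fold difference of 1 gene of the 7, Serpinb10, which was lower with iron and without it. Of all genes, 2.46% differed 2-fold with knockdown with iron, with 1.61% lower and 0.857% higher. Without iron 3.2% did, with 1.83% lower and 1.37% higher. The median of the 7 was -0.42 with iron, against -0.00 over all genes, and -0.02 without iron, against -0.02. With iron all 7 lay below 0, Serpinb6a and Serpinb8 by less than their error, and Serpinb6a was at 0.02 with median centring. The share of all genes below 0 was not counted, and nothing is read from the 7 of 7.

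Serpinb10, also called bomapin, is a serpin of blood-forming and myeloid cells that has been found in the nucleus. Its signals were 29.8 in siTfe3/Tfeb iron, 31.8 in siTfe3/Tfeb untreated, 219 in siGFP iron and 259 in siGFP untreated. Both siTfe3/Tfeb arrays stood far below both siGFP arrays, and they differed from each other by less than their error. Serpinb10 was 6.97-fold lower with knockdown with iron (log2 difference -2.80 ± 0.30), the 8th lowest of 18708 genes, and 8.37-fold lower without iron (-3.06 ± 0.28), the 6th lowest of 19151. Iron gave 0.01 ± 0.36 in siTfe3/Tfeb cells and -0.26 ± 0.21 in siGFP cells.

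The siTfe3/Tfeb signals of Serpinb10 lay close to the lowest signals well above background on their arrays, 21.2 with iron and 20.5 without. At that level the fold depends on the background correction and on any added offset. With normexp and its offset of 50, which is larger than those signals, the log2 differences were -1.53 with iron and -1.82 without iron. Both were past 2-fold. The parts of the correction and of the offset in this change were not separated. The SD of 0.569 from repeated spots is for 2 arrays both below -4. Serpinb10 was at -4.32 on both siTfe3/Tfeb arrays, but at -1.51 with iron and -1.26 without on the siGFP arrays. That SD is therefore not the one for its knockdown differences.

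Summed signals of markers of neutrophils and their precursors were lower on the siTfe3/Tfeb arrays, but single genes differed. Of 7 such genes, 2 were well above background in siTfe3/Tfeb iron, 2 in siTfe3/Tfeb untreated, 3 in siGFP iron and 4 in siGFP untreated, with summed signals of 110, 127, 185 and 207 in that order. S100a8, a calcium-binding protein of neutrophils and monocytes, had the highest signal of the 7 on both siGFP arrays. It read 16.2 in siTfe3/Tfeb iron, 16.0 in siTfe3/Tfeb untreated, 67.7 in siGFP iron and 76.1 in siGFP untreated. S100a9, well above background on 1 array, read 7.21, 15.3, 5.26 and 47.9 in that order, so it was not lower with knockdown with iron. Camp read 26.1, 25.7, 39.5 and 30.3. Mpo (myeloperoxidase) went the other way, at 46.8, 44.6, 41.7 and 34.5 in that order. The summed macrophage markers were also lower on the siTfe3/Tfeb arrays, at 537835 with iron and 563432 without, against 629397 and 644390 on the siGFP arrays. The summed T and NK cell markers were lower there too, at 1056 and 1070, against 1148 and 1183. The summed mast cell markers were higher there, at 263 with iron and 269 without, against 252 and 174. The B cell sums were 138 and 136, against 138 and 127. All these sums are of signals before scaling and take in spots that were not well above background. Ly6g, Ltf and Cxcr2, which mark neutrophils and their granules, were not well above background on any array. Of other cells' markers, 2 or 3 of 5 for T and NK cells, 2 or 3 of 4 for B cells and 1 or 2 of 5 for mast cells were well above background on an array. The cultures were of a macrophage line, so these markers are read as genes and not as counts of other cell types. Their part in the Serpinb10 result was not tested. Bulk RNA cannot tell fewer cells with a transcript from less of it per cell.

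**Figure D4:**
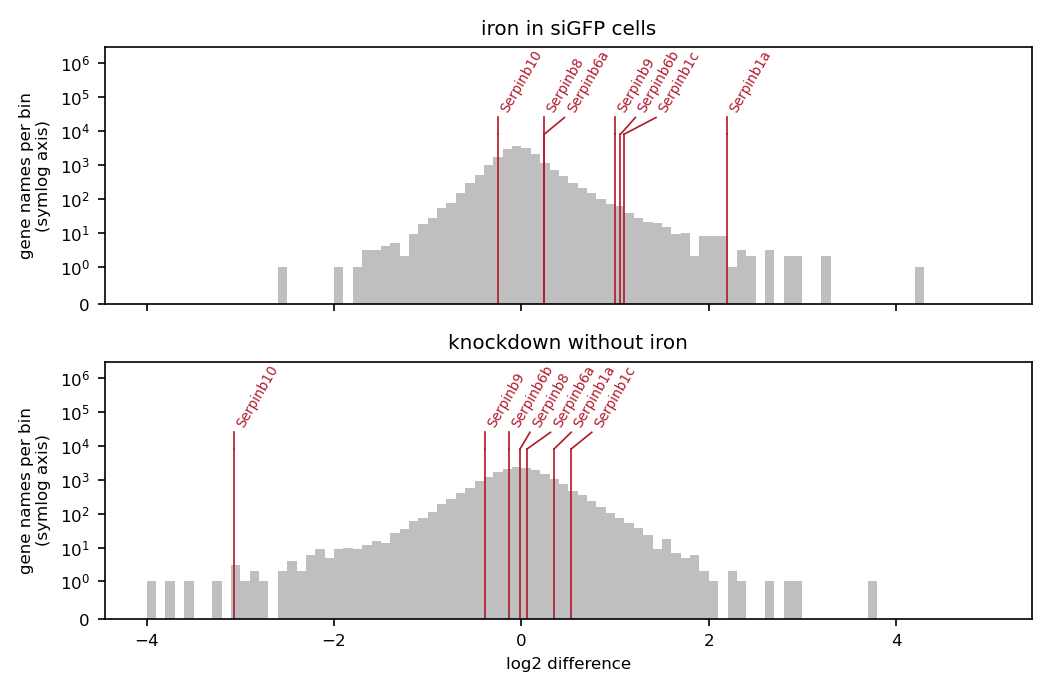
Number of gene names (vertical axis, linear to 1 and logarithmic above) in bins of log2 difference for iron in siGFP cells and for knockdown without iron, with lines at the 7 genes; names are moved sideways where lines crowd. Serpinb1a is far out on the right of the upper panel and Serpinb10 far out on the left of the lower panel, at -3.06.

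The genes lie in 2 clusters. By the order of genes in RefSeq's table (GRCm38.p6), Serpinb10 and Serpinb8 stand next to each other at the end of the chromosome 1 cluster, after Serpinb7 and Serpinb2. On chromosome 13, Serpinb1a, Serpinb1c, Serpinb6b and Serpinb9 stand side by side in that order at one end, and Serpinb6a stands at the other end. These first 4 genes of the chromosome 13 cluster are those with the largest log2 differences with iron in siGFP cells among the 7 with a value. Serpinb1b, which has none, lies apart from them, after Serpinb9b.

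Near Serpinb10, Serpinb7 (megsin, first described in kidney mesangial cells) read 5.08 in siTfe3/Tfeb iron, 4.83 in siTfe3/Tfeb untreated, 27.3 in siGFP iron and 47.2 in siGFP untreated. It was well above background on the siGFP arrays alone, and was at least 1.22-fold lower with knockdown with iron and at least 2.37-fold lower without iron. The bound sets the lowest signal well above background on the dim array in place of its own. Serpinb2 (plasminogen activator inhibitor 2), which lies between Serpinb7 and Serpinb10, was not well above background on any array. Serpinb8, on the other side, differed by -0.16 at most with knockdown by either probe.

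Of the 19 other clade B names, 14 were not well above background on any array and 4 were on all: Serpinb3c, Serpinb6c, Serpinb6d and Serpinb6e. None of the 5 with a value differed 2-fold with iron in siGFP cells, and Serpinb7 was the 1 that differed 2-fold with knockdown without iron. Serpinb6d read 98.8 in siTfe3/Tfeb iron, 102 in siTfe3/Tfeb untreated, 108 in siGFP iron and 97.5 in siGFP untreated. Serpinb3c and Serpinb6e gave log2 differences with iron in siGFP cells of 0.18 ± 0.34 and -0.14 ± 0.36, both within their error.

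**Figure D5:**
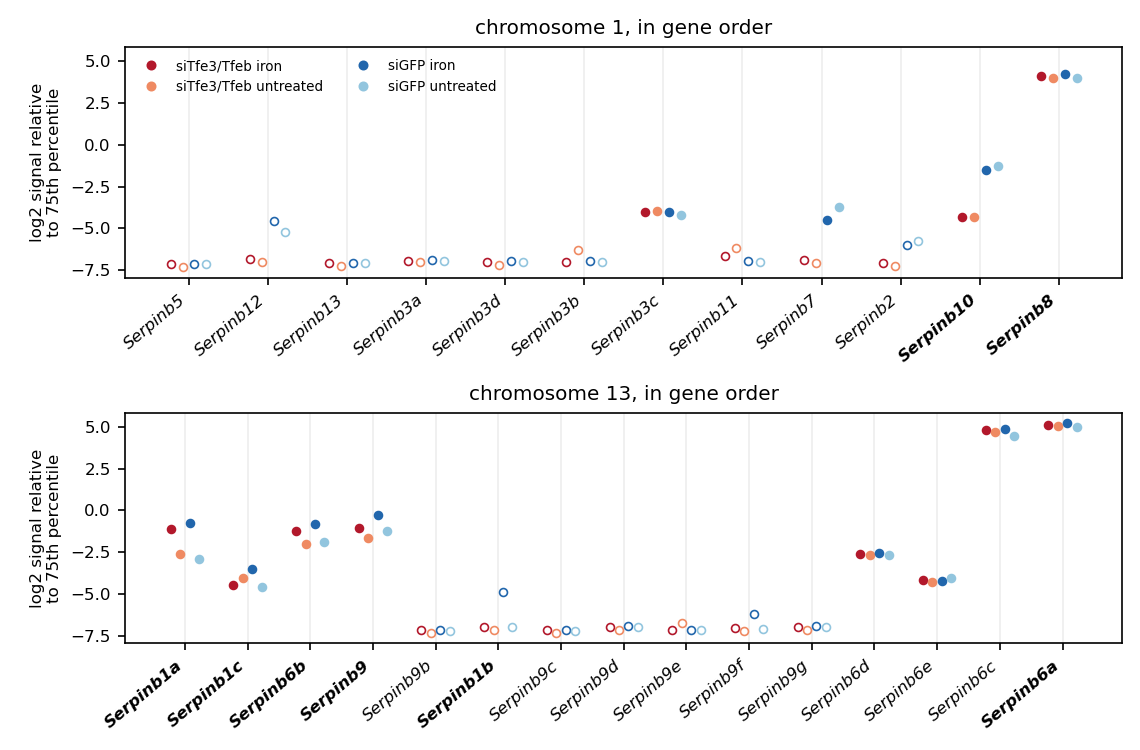
Log2 signal relative to the 75th percentile of each array (vertical axes) for the brightest probe of the clade B serpins on the arrays, in gene order along chromosome 1 and chromosome 13, members in bold and open points where a spot was not well above background. Most genes lie at the floor on all 4 arrays; Serpinb7 and Serpinb10 are lower on both siTfe3/Tfeb arrays, and the genes from Serpinb1a to Serpinb9 are highest on the siGFP iron array.

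Promoters were read from RefSeq (GRCm38.p6) as 250 bases before to 50 after a gene start, 300 in all. There were 9 for 7 of the genes, and Serpinb1a had no entry. Both strands were searched for CACGTG, the core of the site that Tfe3 and Tfeb bind, for TGACNNNGC, the core of the antioxidant response element, and for TGANTCA, the AP-1 site, which can overlap the antioxidant core. CACGTG was in 0 of the 9, against 7.15% of 32851 promoters of the same length. TGACNNNGC was in 1, of Serpinb6a, against 12.4%. TGANTCA was in 2, of Serpinb10 and Serpinb8, against 7.81%. The stretches upstream of the start that hold it are given for these neighbours, which differed so unlike each other with knockdown, with the match in capitals. They are on the plus strand at chr1:107528919-107528985 for Serpinb10 and chr1:107589953-107590005 for Serpinb8, GRCm38.p6.
Serpinb10: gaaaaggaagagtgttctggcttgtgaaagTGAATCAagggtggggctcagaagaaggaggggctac
Serpinb8: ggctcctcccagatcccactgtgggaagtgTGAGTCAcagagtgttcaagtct
The match lies 54 bases before the start in Serpinb10 and 23 before it in Serpinb8, which has a second match 13 bases after the start. A match is a description of the letters in these windows only.

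Proteases that clade B serpins inhibit or restrain were set beside them. Of 14, 8 were well above background on all arrays and 5 on none, among the 5 the granule proteases Ctsg (cathepsin G) and Gzmb (granzyme B). Elane (neutrophil elastase), a target of SERPINB1, read 486 in siTfe3/Tfeb iron, 331 in siTfe3/Tfeb untreated, 488 in siGFP iron and 360 in siGFP untreated, with log2 differences with iron of 0.66 ± 0.21 in siTfe3/Tfeb cells and 0.42 ± 0.21 in siGFP cells. Furin differed by at most 0.09 in any of the 4 comparisons. With iron, Plau (urokinase) was the 1 protease that was 2-fold higher, of 9 with a value in siTfe3/Tfeb cells and 8 in siGFP cells, at 3.77-fold in siTfe3/Tfeb cells and 4.11-fold in siGFP cells. With knockdown 0 of 8 differed 2-fold with iron and 1 of 9 without, Ctsk (cathepsin K), which was 1.98-fold lower with knockdown with iron and 2.31-fold lower without iron. The lysosomal protease Ctsl (cathepsin L) gave 0.73 with iron in siTfe3/Tfeb and 0.88 in siGFP cells, and its relative Ctss (cathepsin S) 0.03 and 0.16. The inflammatory caspase Casp1 gave 0.10 and 0.15 in the same order.

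Among 19 serpins of other clades, most of them secreted, 6 were well above background on all arrays and 7 on none. With iron, 3 of 11 with a value were 2-fold higher in siTfe3/Tfeb cells, and 2 of 10 in siGFP cells. Serpini1 (neuroserpin) was at least 5.37-fold higher with iron in siTfe3/Tfeb cells and 2.04-fold higher in siGFP cells. Serpinf1 (pigment epithelium-derived factor) gave 1.16 ± 0.21 in siTfe3/Tfeb cells and 0.20 ± 0.21 in siGFP cells. Serpinc1 (antithrombin) gave 0.94 and 0.31 in that order, and Serpine2 (protease nexin 1) -0.03 and 0.53. Serpina1b gave 0.37 and 0.12 and Serpina3h -0.24 and -0.39. With knockdown 1 of 10 was 2-fold higher with iron, Serpinf1, and 0 of 11 differed 2-fold without iron.

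The genes whose patterns over the 4 arrays were most like each member were found as those with the smallest Euclidean distance between mean-centred log2 values, among 18373 genes. For Serpinb1a they were Bcar3 (distance 0.0995), Gpr176 (0.311) and F3 (0.318), where the median gene was at 1.90. For Serpinb6b the nearest were 6330407A03Rik, AK042818 and Insig1, at 0.0835 to 0.102, and for Serpinb9 AK038258, Gata3 and Rasal2, at 0.0819 to 0.103. Serpinb1c was nearest to an unannotated region of chromosome 9, Adam3 and Fam196a, at 0.0977 to 0.226. The distances are not scaled to a member's range, so they do not compare between members. The median gene was at 0.926 for Serpinb1c and at 2.94 for Serpinb10. For Serpinb10 the nearest were Clec4b1 (0.753), Slc17a6 (0.798) and Pilra (0.836). All 3 were lower on both siTfe3/Tfeb arrays, which follows from choosing them by likeness to Serpinb10. With 4 arrays such a distance describes these arrays and carries no error.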

How the data were processed

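Total RNA of 4 RAW264 cultures was labelled with Cy3 and hybridised to 1-colour Agilent mouse arrays, per the labels. Per the submitters' processing notes, Agilent Feature Extraction 12.0.3.1 read the images. The deposited scanner files give intensity values per spot, and per the file headers the processed intensity is already background-subtracted. The authors also deposited a series matrix of log2 values. Its differences between arrays regressed on those of the scanner files with slope 1 and Pearson r 1, and every probe's median over the 4 arrays was 0. Its column medians were 0.0013 in siTfe3/Tfeb iron, -0.087 in siTfe3/Tfeb untreated, 0.022 in siGFP iron and -0.0042 in siGFP untreated.

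From these, log2 processed signal minus the array's 75th percentile over 59305 non-control spots was computed (Python 3.11.15, pandas 2.3.3). Outlier-flagged spots were dropped, with the loss of 3 probes, spots of 1 probe were averaged, and a gene name was represented by its brightest probe. Genes were counted from a 2-fold difference. A gene well above background on 1 of 2 arrays has a bound, in which the dim array counts with its own signal or, if higher, with its dimmest signal well above background. Of 13 member probes, 11 had a RefSeq accession in the gene table, and all 11 matched the symbol. The spread of 300 probes with 10 spots each served as a check on the error model. At levels above 2 its SD for a difference of 2 arrays was 0.063, against 0.20 by the model for Serpinb6a and Serpinb8. For their brightest probes, within the error therefore means within the model's larger value. All arrays lay on 1 slide. Alternatives were other scalings, normexp (limma 3.58.1, R 4.3.3, offset 50), other probe and background rules, and a 1.5-fold call.

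The members and the lists of other genes were chosen with earlier results of these data known. Named from the lists were genes that differed 2-fold in a pairwise comparison and up to 4 further genes by mean level, and, for patterns, the 3 nearest genes to each member that spanned at least 1 on the log2 scale. S100a8, S100a9, Camp, Mpo, Ly6g, Ltf and Cxcr2, from a marker list, Serpinb2, for its position, and the proteases Elane, Ctsg and Gzmb were named after their values were seen. A gene of the lists that the rule would name is not reported here. The counting was tested on simulated data with known differences.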

Additional observations from a re-analysis of the deposited data

Results flagged for a closer look

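Serpinb1c moved in opposite directions with iron under the 2 siRNAs, lower in siTfe3/Tfeb cells (log2 difference -0.41) and higher in siGFP cells (1.10), a difference of responses of -1.50. In siTfe3/Tfeb cells the value was 0.14 by the mean over its probes and -0.01 with normexp, so the opposite directions hold by the brightest probe with the processed signal and not under these. With 1 array in each group this difference was not tested. Its signals were 27.0 and 38.5 in siTfe3/Tfeb cells with and without iron, and 56.2 and 26.0 in siGFP cells with and without iron.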

How the results depend on the processing

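Of 350 member differences under alternatives, 331 stayed within 1 SD of the scanner's error, 19 moved by more, and no 2-fold call changed sign. The 331 do not measure robustness, because several settings could hardly move a value. The background rules left the 7 genes unchanged, and the series matrix shifted pairwise differences by at most 0.019. The dimmer Serpinb8 probe could change Serpinb8 alone. Normexp moved 10 of 35 values, the mean over probes 7 of 35, and the dimmer Serpinb8 probe 2 of 35. Under normexp 1 gene instead of 3 was called with iron in siGFP cells (4 with quantile normalization, the series matrix, no filter or a 1.5-fold call) and 0 instead of 1 in the difference of responses, where Serpinb1c was then at -0.37. With the mean over all probes of a gene the difference of responses also held 0 calls, with Serpinb1c at -0.93 and its iron value in siTfe3/Tfeb cells turned to 0.14. Serpinb6a then gave -0.38 with iron in siTfe3/Tfeb cells and 0.65 with knockdown without iron. With no background filter knockdown with iron held 2 calls instead of 1, and the difference of responses 2. At a 1.5-fold call iron in siTfe3/Tfeb cells held 3 instead of 1, knockdown with iron 3 and the difference of responses 2. Taking Serpinb8 by its dimmer probe, chosen after seeing the data, turned its iron values to -0.87 in siTfe3/Tfeb cells and -0.72 in siGFP cells. Over all genes, normexp called 188, 159, 168, 255 and 19 genes where 457, 360, 497, 667 and 132 were called for iron in siTfe3/Tfeb and in siGFP cells, knockdown with and without iron, and the difference of responses. In that order no filter gave 2860, 2403, 3043, 2973 and 4122, and a 1.5-fold call 1890, 1516, 2133, 2965 and 1056. The mean over probes gave 229 for the difference of responses. Higher calls were 42.4% of the difference of responses, against 56.3% with quantile normalization and 60.6% with median centring, and 34.8% of knockdown with iron, against 49.1% with median centring. The causes were not tested. Dim signals limit Serpinb1c and the siTfe3/Tfeb values of Serpinb10. No paired analysis was possible because each group has 1 array and no replicate numbers link them.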
